A study of Mus musculus with 12 samples.

Results

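The mitosis and cytokinesis genes described here are 35 genes whose products drive a cell into mitosis, attach and separate its chromosomes and split it into daughter cells. They were chosen by name for these functions and not by a measured value, though earlier results of these data were known then. Of the 35 genes, 34 had a row on the arrays, all 34 lay above the filter on low values, and they were tested among 16860 genes. The exception was Ccnb1, cyclin B1, which the probe annotation named on no row, so that only its promoter is described here.

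Cells enter mitosis when the kinase Cdk1, bound to a cyclin, is switched on by Cdc25 phosphatases and by kinases of the Plk and Aurora families. The spindle checkpoint then holds the anaphase promoting complex in check until every kinetochore has attached to microtubules, after which cyclins and cohesin regulators are destroyed, the chromosomes part and a contractile ring closes at the cell's middle. Most of these genes are transcribed late in the cell cycle, under the DREAM and B-Myb complexes and FoxM1, so that their RNA in a bulk sample is commonly read as a measure of how many cells are dividing.

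The RNA came from cultured mouse bone marrow cells, enriched for Kit and replated 3 times after transduction with a MigR1 retrovirus that encodes AML1-ETO, a fusion protein of acute myeloid leukaemia, together with GFP. Each of the 4 groups had 3 arrays: Tet2-/- cells and Tet2fl/fl cells, each taken at passage 10 and at passage 2. All 4 groups carried floxed Tet2, CreER (a Cre recombinase that tamoxifen activates) and AML1-ETO. Tet2-/- cells had received 4-hydroxytamoxifen at 200 nM for 2 passages (4 days) and Tet2fl/fl cells ethanol. The drug and the loss of Tet2, which encodes a DNA methylcytosine oxidase, therefore cannot be told apart. RNA was taken from sorted cells that were positive for GFP and CD16/32 and negative for CD11b and Gr1, an immature myeloid gate. The labels do not give the mouse, the number of transductions or whether replicates were separate cultures.

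The values are log2 expression values, 1 per gene and array, and a negative difference means a lower level in the group named first. Array medians lay between 5.57 and 5.68, within a group the correlation between arrays over all rows was 0.984 to 0.991, and the number of arrays limits the precision. Tet2 itself had log2 values of 9.92, 9.64 and 9.93 in Tet2-/- cells and 9.91, 9.80 and 9.93 in Tet2fl/fl cells at passage 10, a difference of -0.05 ± 0.09 (SE, adjusted p = 0.921). At passage 2 it had 9.97, 9.89 and 9.98 in Tet2-/- cells and 9.94, 9.89 and 10.08 in Tet2fl/fl cells, a difference of -0.03 ± 0.09 (SE, adjusted p = 0.952). One value stands for the whole gene, including exons outside a floxed part, so this does not check the deletion. Of the genes for the sorted surface markers, Fcgr3 (CD16) and Fcgr2b (CD32) had mean log2 values of 10.9 and 11.5 over the 12 arrays. For the antigens selected against, Itgam (CD11b) had 8.12, and of the genes whose products a Gr1 antibody can bind, Ly6g had 6.03 and Ly6c2 11.98. The 10 listed genes of mast cells, basophils and eosinophils had mean log2 values from 9.10 (Fcer1a) to 13.4 (Cpa3). Mcpt8 had 13.1 and Gata2 11.5. Their median passage difference was 0.05 with 0 passing. The list's mean deviation from the gene means over 12 arrays was lower in Tet2-/- cells. It was -0.28 at passage 10 and -0.33 at passage 2, against 0.28 and 0.33 in Tet2fl/fl cells. That difference of list means was not tested. In bulk RNA, fewer dividing cells and less of each RNA per dividing cell cannot be told apart.

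Averaged over both genotypes, 23 of 34 mitosis and cytokinesis genes fell at passage 10 relative to passage 2, against 4.52% of all genes tested. In Tet2-/- cells alone 4 fell, against 1.73% of all genes, and in Tet2fl/fl cells alone 0, against 0.0%. All 34 measured members had negative differences (passage 10 minus passage 2) in Tet2-/- cells and in Tet2fl/fl cells, where 42.4% and 42.1% of all genes tested did, as 40.2% did for the average of both. The 23 passed an adjusted p of 0.05 for the average of both genotypes' passage differences, and no member passed as higher. Here and below, fell and rose are used only for genes that passed this threshold. A member that did not fall could still have a negative difference. The share of 4.52% also applies to the counts by class below. The members' median difference was -0.49, with single members between -0.70 and -0.20, against a median of 0.04 over all genes tested. The largest differences were those of Anln, Cenpe and Bub1, which were 38.3%, 38.4% and 38.1% lower at passage 10.

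With the replicate number as a block, which compares arrays of the same number and is given here because those arrays deviated together, 33 of 34 members passed as lower for the average difference, against 7.28% of all genes. Cenpa did not (adjusted p = 0.14 with the block). Genes said below to pass only with the block passed in that fit and not in the reported fit without it. Some of them also passed under other alternatives, such as leaving out 1 array. All 6 passage 10 arrays lay below all 6 passage 2 arrays for 11 of 34 members, against 2.25% of all genes. In all 6 same-numbered pairs of arrays, 3 per genotype, 33 of 34 members were lower at passage 10, which 8.43% of all genes were, and Cenpa was again the exception. The median over members within a pair was -0.44, -0.47 and -0.49 in Tet2-/- cells for replicates 1, 2 and 3, and -0.29, -0.68 and -0.54 in Tet2fl/fl cells. The median was therefore below 0 in every pair, and lowest in the second Tet2fl/fl pair.

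The count of 23 without the block depended on single arrays. Leaving out 1 array at a time left 6 to 27 members past the threshold and kept the members' median between -0.56 and -0.42. Single members moved more over the alternatives, with Kif23 between -0.76 and -0.40 and Cenpa between -0.30 and -0.12. The lowest counts were 6 without Tet2fl/fl passage 2 replicate 3 and 7 without Tet2-/- passage 2 replicate 3 or without Tet2-/- passage 10 replicate 2. Counts of 9 to 13 were found without Tet2-/- passage 2 replicate 1, Tet2fl/fl passage 10 replicate 2, Tet2-/- passage 10 replicate 1, Tet2fl/fl passage 2 replicate 2 or Tet2fl/fl passage 10 replicate 3. Cdkn3, Bub1, Mad2l1, Cenpe, Tpx2 and Kif23 passed without each of the 12 arrays in turn.

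**Figure D1:**
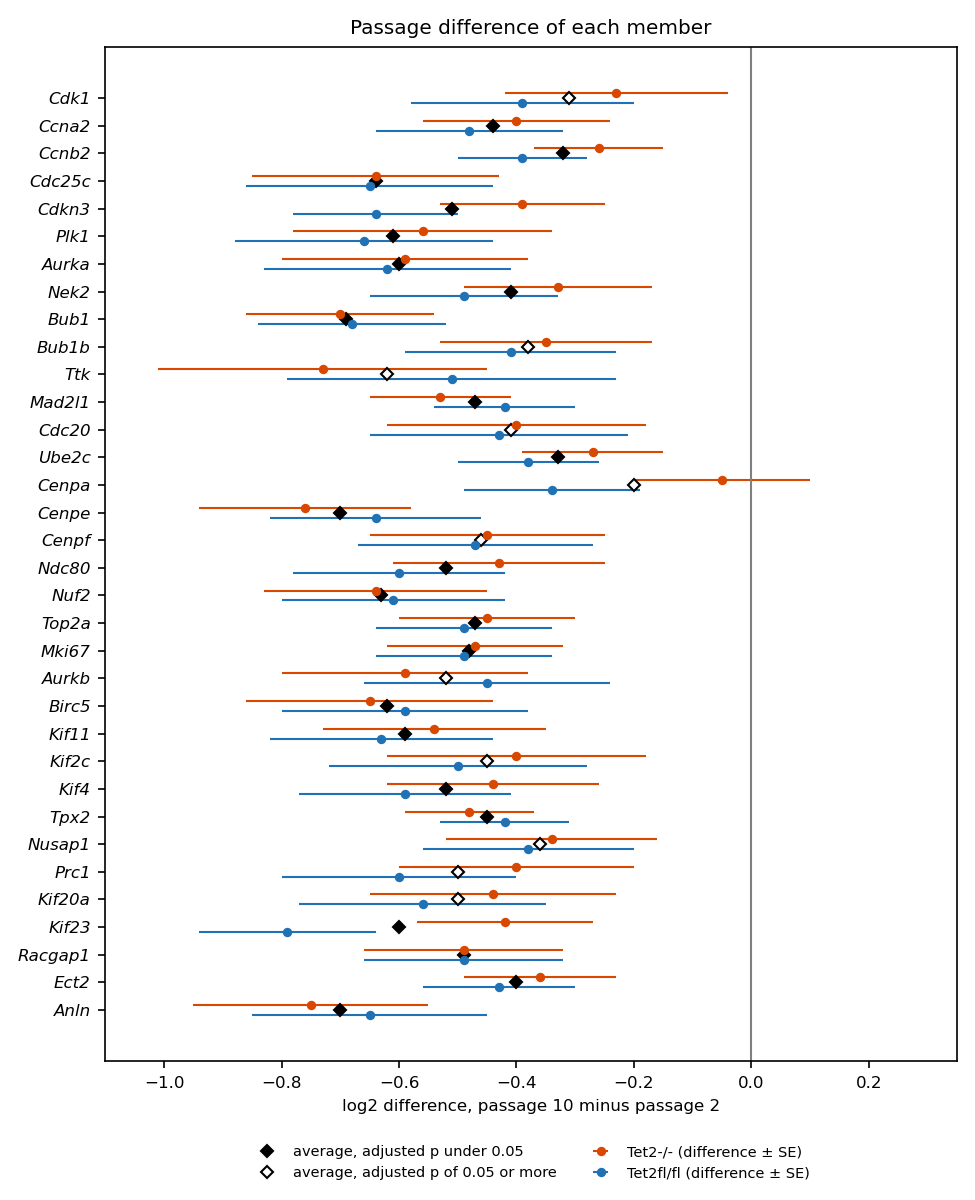
Log2 differences between passage 10 and passage 2 (horizontal axis) for each of the 34 measured members (vertical axis, by role), with circles and bars for the difference ± standard error in Tet2-/- and in Tet2fl/fl cells and diamonds for the average. All 34 members lie below 0 in both genotypes, and the 23 filled diamonds mark an adjusted p under 0.05.

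In Tet2-/- cells alone, 4 of 34 members passed as lower at passage 10, namely Bub1, Mad2l1, Cenpe and Tpx2, against 1.73% of all genes, and the median over members was -0.44. With the block 21 passed, against 4.68% of all genes, and 25 had an unadjusted p under 0.05 without it, against 10.8%. With the replicate number as a random instead of a fixed term, 6 passed, against 6.21% of all genes in either direction. The members' values lay apart between the passages, all 3 passage 10 arrays below all 3 passage 2 arrays, for 12 of 34 members, against 12.9% of all genes. Tet2-/- passage 10 replicate 3 overlapped passage 2 for the other members. Without that array the median over members was -0.59 and 0 passed without the block, with 2 arrays left in that group. The count was also 0 without Tet2-/- passage 10 replicate 1 or 2, Tet2-/- passage 2 replicate 1 or 3 or Tet2fl/fl passage 2 replicate 2, it was 1 without Tet2-/- passage 2 replicate 2, Tet2fl/fl passage 10 replicate 2 or 3 or Tet2fl/fl passage 2 replicate 1, and 2 without Tet2fl/fl passage 10 replicate 1. For the average over genotypes, 25 passed without Tet2-/- passage 10 replicate 3 and the median was -0.56.

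In Tet2fl/fl cells alone, 0 of 34 members passed with limma, as did 0.0% of all genes as lower, and the median over members was -0.50. At an unadjusted p under 0.05, 29 members were lower, against 4.5% of all genes. With the block 3 passed, Cdkn3, Kif11 and Anln, against 0.0356% of all genes, each with an adjusted p of 0.0466. All 3 passage 10 arrays lay below all 3 passage 2 arrays for 33 of 34 members, against 6.55% of all genes, and Cenpf was the exception. The difference between the genotypes in mean passage difference was tested as the interaction, and that in the count without overlap was not tested.

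**Figure D2:**
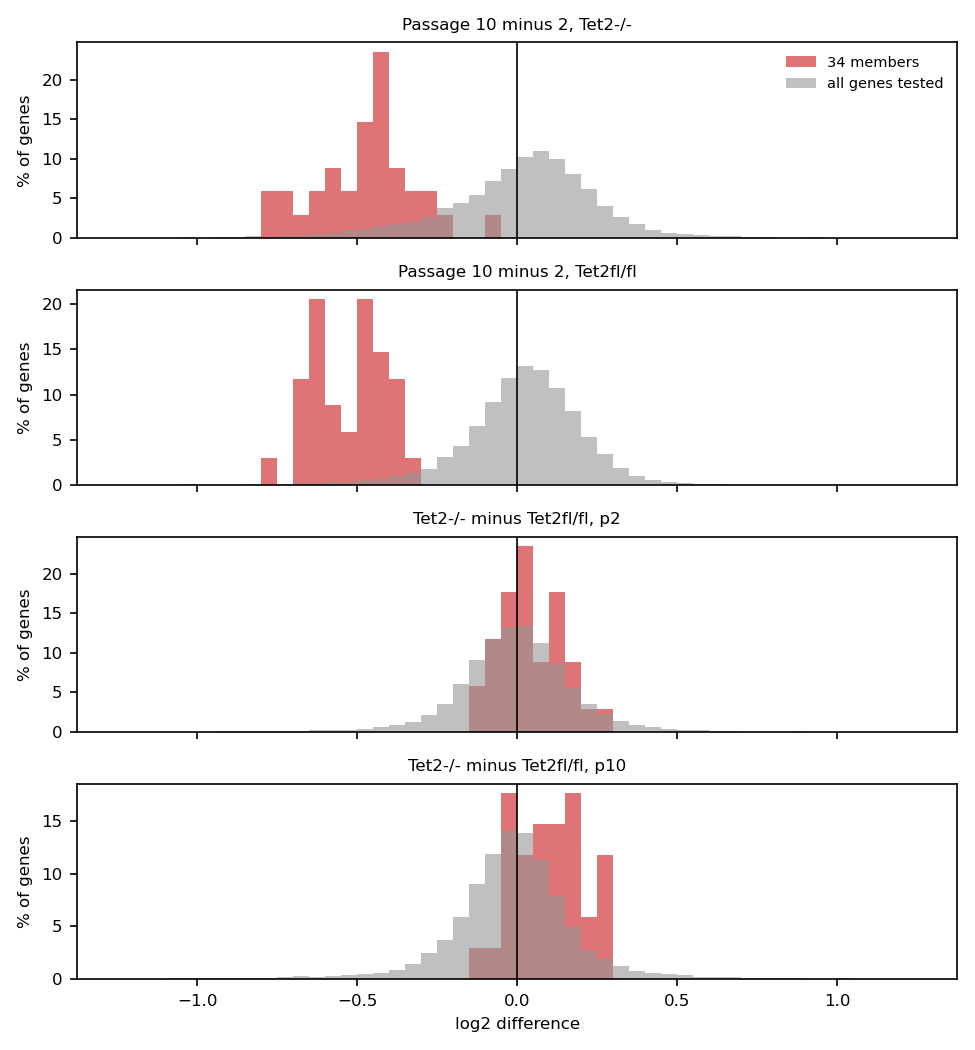
Distribution of log2 differences (horizontal axis, percent of genes on the vertical axis) for the 34 members and for all 16860 genes tested, in 4 panels for both passage comparisons and both genotype comparisons. In the passage panels the members lie left of 0 with medians of -0.44 in Tet2-/- and -0.50 in Tet2fl/fl cells, and in the genotype panels they lie around 0 with medians of 0.03 at passage 2 and 0.11 at passage 10.

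The promoters of 30 of the 35 members were listed in RefSeq windows of 300 bases on GRCm38.p6 (250 before the transcription start and 50 after). The 30 include Ccnb1, which had no value on the arrays, so the counts below are not those of measured members alone. A cell cycle homology region (CHR), the element that DREAM and B-Myb complexes bind in genes of this class, was searched on both strands as TTTGAA or TTTAAA. It occurred in 25 of the 30 (83.3%), against 27.6% of all 32851 windows, and in 7 of 31 DNA replication genes (22.6%). CCAAT, the letters bound by the factor NF-Y, occurred in 23 of 30 (76.7%) on either strand, against 37.4% of all windows. The DNA replication genes had it nearly as often, in 20 of 31 (64.5%). A CHR and a CCAAT stood together in 21 (70.0%), against 10.7% of all windows and 16.1% of the DNA replication genes. E2F letters (TTTGGCGC, TTTCGCGC or TTCCCGC, on either strand) stood in 1 of 30 members (3.33%), against 58.1% of the DNA replication genes and 5.33% of all windows. Members and DNA replication genes were counted once each, by the first window listed, while all windows include several for some genes. A match is a description of letters and not a binding site.

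One promoter per functional class is printed, that of the member with the smallest p for the average passage difference among those listed, as the 150 bases upstream of the start. Each is read 5′ to 3′ on the gene's strand with CCAAT and CHR letters of either strand in capitals (ATTGG and TTCAAA are the other-strand forms). They lie at chr14:46760391-46760540 (plus strand, Cdkn3), chr2:127831860-127832009 (minus, Bub1), chr3:135212413-135212562 (plus, Cenpe), chr11:99024190-99024339 (minus, Top2a), chr19:37376232-37376381 (plus, Kif11) and chr9:61946800-61946949 (minus, Kif23).
Cdkn3: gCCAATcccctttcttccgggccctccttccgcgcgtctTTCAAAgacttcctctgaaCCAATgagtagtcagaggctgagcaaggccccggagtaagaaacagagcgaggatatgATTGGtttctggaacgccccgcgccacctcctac
Bub1: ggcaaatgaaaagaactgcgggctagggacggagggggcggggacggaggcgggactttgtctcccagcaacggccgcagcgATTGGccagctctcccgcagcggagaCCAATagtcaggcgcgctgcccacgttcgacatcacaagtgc
Cenpe: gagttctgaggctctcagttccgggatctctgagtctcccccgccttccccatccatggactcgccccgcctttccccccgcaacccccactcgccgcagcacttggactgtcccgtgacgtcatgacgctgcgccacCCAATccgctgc
Top2a: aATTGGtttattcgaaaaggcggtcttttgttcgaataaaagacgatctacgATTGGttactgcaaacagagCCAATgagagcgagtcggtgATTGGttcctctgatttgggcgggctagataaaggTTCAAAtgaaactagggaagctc
Kif11: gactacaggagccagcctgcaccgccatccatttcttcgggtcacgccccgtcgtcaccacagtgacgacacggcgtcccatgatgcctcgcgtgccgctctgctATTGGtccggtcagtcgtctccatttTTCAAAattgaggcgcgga
Kif23: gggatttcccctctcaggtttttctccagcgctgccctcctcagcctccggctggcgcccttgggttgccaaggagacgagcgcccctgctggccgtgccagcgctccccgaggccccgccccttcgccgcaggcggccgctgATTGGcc
Kif11 had a CCAAT whose first base lay 45 bases before the start and a CHR 19 bases before it. In its printed run Top2a had a CHR 23 bases before the start and 4 CCAAT further upstream, and its window held another CHR and 2 more CCAAT beyond the run. In Cenpe and Kif23 a CHR lay downstream of the start, outside the printed run, and Bub1 had 2 CCAAT and no CHR in its window. Mad2l1, Nuf2 and Nusap1 were listed and had none of the letters searched.

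**Figure D3:**
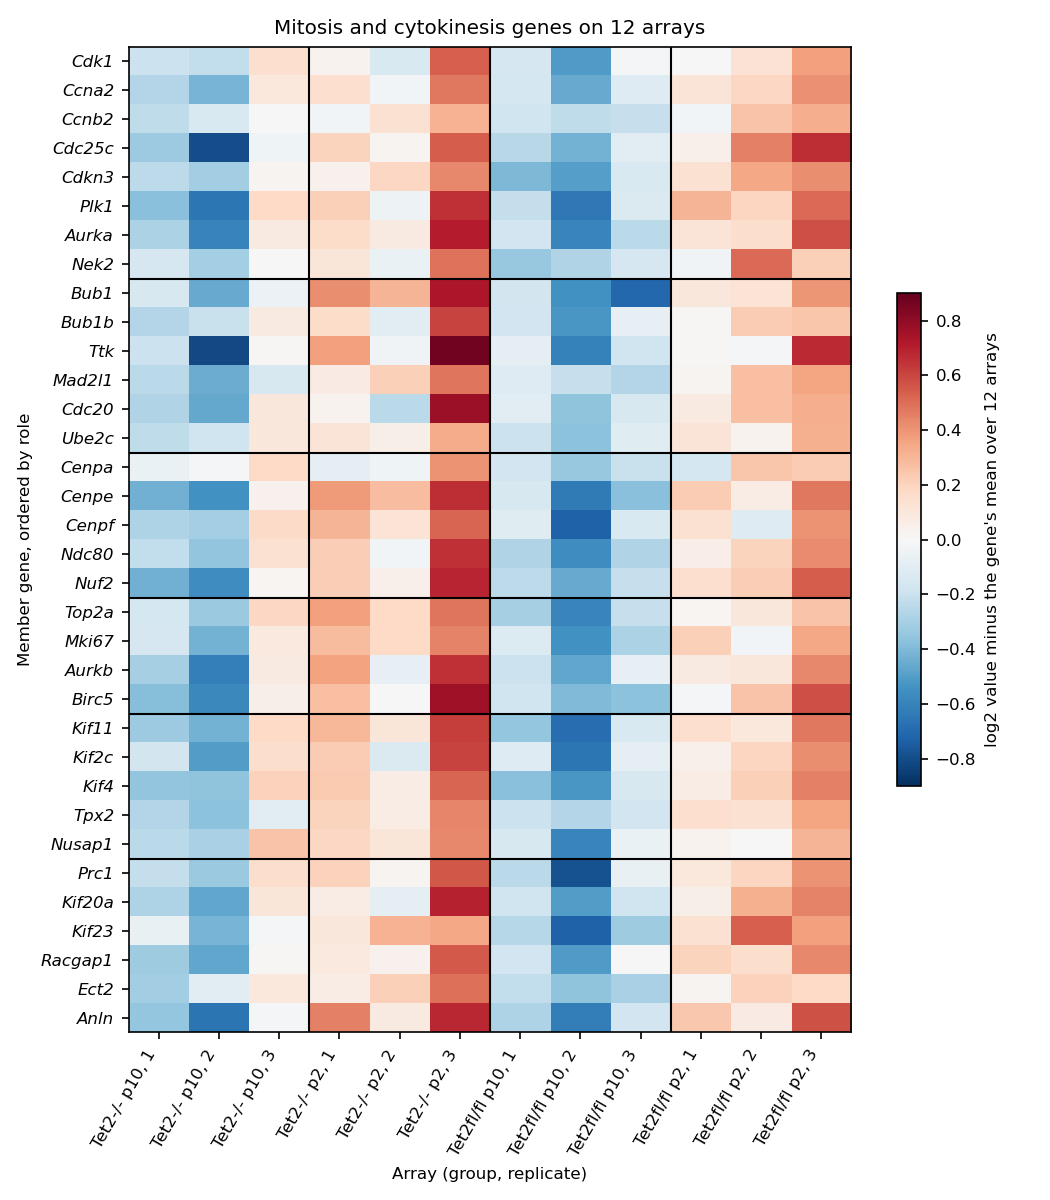
Each cell is a log2 value minus that gene's mean over the 12 arrays (colour), for the 34 measured members (vertical axis, by role) on each array (horizontal axis). Tet2-/- passage 2 replicate 3 is the highest array for 30 of the 34 members and Tet2fl/fl passage 10 replicate 2 the lowest for 20.

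Among the kinases, cyclins and phosphatases of mitotic entry, 7 of 8 measured members fell, with a median difference of -0.48. Cdkn3, a phosphatase that acts on Cdk1, had log2 values of 7.76, 7.68 and 8.02 in Tet2-/- cells at passage 10, against 8.03, 8.18 and 8.43 at passage 2. Tet2fl/fl cells had 7.59, 7.50 and 7.86 at passage 10 and 8.13, 8.34 and 8.41 at passage 2. Every passage 10 value lay below every passage 2 value, and the average difference was -0.51 ± 0.10 (SE, adjusted p = 0.0168). Cdc25c, a phosphatase that activates Cdk1, had 6.69, 6.22 and 6.98 at passage 10 and 7.22, 7.04 and 7.56 at passage 2 in Tet2-/- cells. Its Tet2fl/fl values were 6.77, 6.59 and 6.92 at passage 10 and 7.06, 7.47 and 7.68 at passage 2. The groups did not overlap here either, and Cdc25c fell by the largest amount of this class, 36.0%, with a difference of -0.64 ± 0.15 (SE, adjusted p = 0.0283).

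Plk1, a kinase needed from mitotic entry to cytokinesis, had 9.28, 9.0 and 9.83 at passage 10 and 9.87, 9.61 and 10.31 at passage 2 in Tet2-/- cells. Its values in Tet2fl/fl cells were 9.44, 9.01 and 9.52 at passage 10 and 9.96, 9.85 and 10.16 at passage 2. Tet2-/- passage 10 replicate 3 lay above the second passage 2 array, and the average difference was -0.61 ± 0.16 (SE, adjusted p = 0.0405). Aurka, a kinase of the centrosomes and spindle poles, had 8.65, 8.33 and 9.01 at passage 10 in Tet2-/- cells, against 9.10, 9.01 and 9.64 at passage 2. The Tet2fl/fl values of Aurka were 8.76, 8.34 and 8.69 at passage 10 and 9.05, 9.09 and 9.51 at passage 2. Before rounding no passage 10 array reached a passage 2 array, and the difference was -0.60 ± 0.15 (SE, adjusted p = 0.0357).

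Ccna2, cyclin A2, had 10.18, 10.03 and 10.54 in Tet2-/- cells at passage 10 and 10.60, 10.42 and 10.92 at passage 2. In Tet2fl/fl cells its values were 10.29, 9.99 and 10.33 at passage 10 and 10.56, 10.63 and 10.86 at passage 2. Only the Tet2-/- passages overlapped, and the difference was -0.44 ± 0.11 (SE, adjusted p = 0.0414). Ccnb2, cyclin B2, had 10.22, 10.31 and 10.44 at passage 10 and 10.42, 10.58 and 10.76 at passage 2 in Tet2-/- cells. The Tet2fl/fl groups had Ccnb2 values of 10.27, 10.22 and 10.24 at passage 10 and 10.42, 10.70 and 10.77 at passage 2. Ccnb2 fell less than the other members of the class that passed, by 20.1%, with a difference of -0.32 ± 0.08 (SE, adjusted p = 0.034). Nek2, a centrosome kinase, had 6.70, 6.55 and 6.85 at passage 10 and 6.96, 6.79 and 7.34 at passage 2 in Tet2-/- cells. Its values were 6.51, 6.58 and 6.70 at passage 10 and 6.82, 7.36 and 7.07 at passage 2 in Tet2fl/fl cells. The passages overlapped in Tet2-/- cells, and the average difference was -0.41 ± 0.11 (SE, adjusted p = 0.0491). Cdk1, the kinase that drives mitotic entry, had a difference of -0.31 ± 0.13 (SE, adjusted p = 0.167, 0.0251 with the block), and thus passed only with the block.

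Of the 6 genes of the spindle checkpoint and anaphase promotion, 3 fell (Bub1, Mad2l1 and Ube2c) and the median was -0.44. Bub1, a checkpoint kinase at kinetochores, had 9.29, 8.98 and 9.38 at passage 10 and 9.85, 9.74 and 10.16 at passage 2 in Tet2-/- cells. Values in Tet2fl/fl cells were 9.27, 8.89 and 8.73 at passage 10 and 9.54, 9.56 and 9.83 at passage 2. The passages lay apart in both genotypes, by -0.69 ± 0.12 (SE, adjusted p = 0.013) on average, and Bub1 also passed in Tet2-/- cells alone (-0.70 ± 0.16, SE, adjusted p = 0.0442). Mad2l1, the checkpoint protein that binds Cdc20, had 8.74, 8.54 and 8.84 at passage 10 in Tet2-/- cells and 9.06, 9.20 and 9.47 at passage 2. Mad2l1 values in Tet2fl/fl cells were 8.87, 8.78 and 8.72 at passage 10 and 9.01, 9.26 and 9.34 at passage 2. These did not overlap, and the difference was -0.47 ± 0.09 (SE, adjusted p = 0.0161) on average and -0.53 ± 0.12 (SE, adjusted p = 0.0445) in Tet2-/- cells.

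Ube2c, the ubiquitin-conjugating enzyme that works with the anaphase promoting complex, had 9.58, 9.63 and 9.91 at passage 10 and 9.92, 9.86 and 10.14 at passage 2 in Tet2-/- cells. The values in Tet2fl/fl cells were 9.61, 9.44 and 9.70 at passage 10, against 9.92, 9.84 and 10.13 at passage 2. It fell by 20.2%, the least of the 3 (-0.33 ± 0.09, SE, adjusted p = 0.0421). The other 3 members passed only with the block. Ttk, a kinase that starts checkpoint signalling, had a difference of -0.62 ± 0.19 (SE, adjusted p = 0.0735, 0.00534 with the block). Bub1b, a checkpoint protein that inhibits the complex, differed by -0.38 ± 0.12 (SE, adjusted p = 0.0824, 0.0235 with the block). Cdc20, the activator of the complex, differed by -0.41 ± 0.16 (SE, adjusted p = 0.124, 0.0411 with the block).

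At the centromere and kinetochore, 3 of 5 members fell (Cenpe, Nuf2 and Ndc80), and the median was -0.52. Cenpe, a kinesin that carries chromosomes along microtubules, had 8.13, 8.02 and 8.60 at passage 10 and 8.95, 8.84 and 9.23 at passage 2 in Tet2-/- cells. Its Tet2fl/fl values were 8.42, 7.93 and 8.19 at passage 10, against 8.79, 8.63 and 9.04 at passage 2. No passage 10 value reached a passage 2 value, and the differences were -0.70 ± 0.13 (SE, adjusted p = 0.0161) on average and -0.76 ± 0.18 (SE, adjusted p = 0.0462) in Tet2-/- cells. Nuf2 and Ndc80 are subunits of the complex that holds microtubules at the kinetochore. Nuf2 had 8.20, 8.08 and 8.65 at passage 10 and 8.86, 8.68 and 9.32 at passage 2 in Tet2-/- cells. The Tet2fl/fl values of Nuf2 were 8.40, 8.18 and 8.43 at passage 10 and 8.79, 8.86 and 9.18 at passage 2. They lay apart in both genotypes, with a difference of -0.63 ± 0.13 (SE, adjusted p = 0.0228).

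Ndc80 had 8.19, 8.06 and 8.55 at passage 10 and 8.63, 8.39 and 9.07 at passage 2 in Tet2-/- cells, which overlapped. Tet2fl/fl cells had 8.14, 7.85 and 8.14 at passage 10 and 8.47, 8.61 and 8.84 at passage 2, which did not. The average difference was -0.52 ± 0.13 (SE, adjusted p = 0.0357). Cenpf, a large protein of the outer kinetochore, had a difference of -0.46 ± 0.14 (SE, adjusted p = 0.0685, 0.00639 with the block). Cenpa, the histone H3 variant that marks centromeres, stood apart from the other members in size. Its values were 8.82, 8.87 and 9.06 at passage 10 and 8.79, 8.84 and 9.28 at passage 2 in Tet2-/- cells, with a difference of -0.05 that turned to 0.10 without Tet2-/- passage 2 replicate 3. Values in Tet2fl/fl cells were 8.71, 8.54 and 8.68 at passage 10, against 8.72, 9.13 and 9.11 at passage 2, and a difference of -0.34. The average difference of Cenpa did not pass with or without the block (-0.20 ± 0.10, SE, adjusted p = 0.243, 0.14 with the block).

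Among the genes of chromosome structure and the chromosomal passenger complex, 3 of 4 fell, with a median of -0.50. Top2a, the topoisomerase that untangles sister chromatids, had 10.42, 10.25 and 10.77 at passage 10 and 10.95, 10.76 and 11.06 at passage 2 in Tet2-/- cells. The values in Tet2fl/fl cells were 10.28, 9.99 and 10.37 at passage 10 and 10.60, 10.68 and 10.84 at passage 2. The third Tet2-/- passage 10 array lay just above the second passage 2 array, and the difference was -0.47 ± 0.10 (SE, adjusted p = 0.0245). Mki67, the Ki-67 protein that coats mitotic chromosomes and is used as a marker of dividing cells, had 10.88, 10.61 and 11.12 at passage 10 and 11.32, 11.21 and 11.48 at passage 2 in Tet2-/- cells. The Tet2fl/fl groups had Mki67 values of 10.91, 10.49 and 10.75 at passage 10, against 11.25, 11.01 and 11.38 at passage 2. The passages lay apart within each genotype, by -0.48 ± 0.11 (SE, adjusted p = 0.0259) on average.

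Birc5, survivin, a subunit of the passenger complex, had 6.76, 6.56 and 7.19 at passage 10 in Tet2-/- cells and 7.41, 7.14 and 7.90 at passage 2. The Tet2fl/fl values of Birc5 were 6.96, 6.74 and 6.77 at passage 10 and 7.13, 7.40 and 7.72 at passage 2. It fell by 34.9%, with overlap between the Tet2-/- passages (-0.62 ± 0.15, SE, adjusted p = 0.0334). Aurkb, the kinase of the same complex, passed only with the block, at -0.52 ± 0.15 (SE, adjusted p = 0.0536, 0.00353 with the block).

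Of the spindle motors and microtubule-binding proteins, 3 of 5 fell, and the median was -0.45. Tpx2, the activator of Aurka on the spindle, had 8.85, 8.74 and 9.02 at passage 10 and 9.31, 9.18 and 9.55 at passage 2 in Tet2-/- cells. Its Tet2fl/fl values were 8.92, 8.85 and 8.94 at passage 10 and 9.26, 9.25 and 9.47 at passage 2. All passage 10 arrays lay below all passage 2 arrays, with differences of -0.45 ± 0.08 (SE, adjusted p = 0.0139) on average and -0.48 ± 0.11 (SE, adjusted p = 0.0437) in Tet2-/- cells. Kif11, the kinesin that pushes spindle poles apart, had 9.67, 9.57 and 10.18 at passage 10 and 10.30, 10.11 and 10.62 at passage 2 in Tet2-/- cells. The values in Tet2fl/fl cells were 9.65, 9.31 and 9.86 at passage 10, against 10.15, 10.09 and 10.47 at passage 2. Kif11 fell by 33.3% (-0.59 ± 0.14, SE, adjusted p = 0.0304), with only the third Tet2-/- passage 10 array inside the passage 2 range.

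Kif4, a chromosome-bound kinesin, had 6.94, 6.93 and 7.50 at passage 10 and 7.53, 7.36 and 7.82 at passage 2 in Tet2-/- cells. Tet2fl/fl cells had 6.92, 6.77 and 7.15 at passage 10 and 7.36, 7.51 and 7.75 at passage 2. It fell by 30.1% (-0.52 ± 0.12, SE, adjusted p = 0.033). Kif2c, a kinesin that takes microtubules apart, differed by -0.45 ± 0.16 (SE, adjusted p = 0.0955, 0.0115 with the block), and Nusap1, which bundles spindle microtubules, by -0.36 ± 0.12 (SE, adjusted p = 0.0969, 0.0125 with the block). Both thus passed only with the block.

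Among the genes of the central spindle and cytokinesis, 4 of 6 fell, with a median of -0.50. Kif23, the kinesin that bundles the central spindle with Racgap1, had 9.05, 8.70 and 9.11 at passage 10 and 9.22, 9.43 and 9.47 at passage 2 in Tet2-/- cells. Its Tet2fl/fl values were 8.86, 8.39 and 8.80 at passage 10 and 9.26, 9.66 and 9.49 at passage 2. The passages did not overlap, and the difference was -0.60 ± 0.11 (SE, adjusted p = 0.0161) on average. Anln, anillin, a scaffold of the contractile ring, had 8.84, 8.53 and 9.17 at passage 10 and 9.64, 9.27 and 9.87 at passage 2 in Tet2-/- cells. Values in Tet2fl/fl cells were 8.91, 8.57 and 9.02 at passage 10, against 9.43, 9.26 and 9.76 at passage 2. Anln fell by 38.3%, again without overlap (-0.70 ± 0.14, SE, adjusted p = 0.0211).

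Racgap1, the partner of Kif23, had 8.51, 8.36 and 8.84 at passage 10 and 8.92, 8.87 and 9.38 at passage 2 in Tet2-/- cells. The Tet2fl/fl groups had Racgap1 values of 8.66, 8.32 and 8.83 at passage 10 and 9.03, 8.99 and 9.26 at passage 2. It fell by 28.6% with no overlap between passages (-0.49 ± 0.12, SE, adjusted p = 0.0376). Ect2, the exchange factor that activates RhoA at the cell's middle, had 9.61, 9.82 and 10.02 at passage 10 and 9.99, 10.14 and 10.42 at passage 2 in Tet2-/- cells. The Tet2fl/fl values of Ect2 were 9.70, 9.56 and 9.63 at passage 10, against 9.95, 10.13 and 10.10 at passage 2. Ect2 fell by 24.1% (-0.40 ± 0.09, SE, adjusted p = 0.0258). Prc1, which crosslinks the microtubules of the central spindle, differed by -0.50 ± 0.14 (SE, adjusted p = 0.0525, 0.00534 with the block), and Kif20a, a kinesin of late mitosis, by -0.50 ± 0.15 (SE, adjusted p = 0.0593, 0.0114 with the block). These were the members of the class that passed only with the block.

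The members moved together from array to array as well as between passages. The mean over members of each array's deviation from the gene mean was -0.26, -0.42 and 0.08 in Tet2-/- cells at passage 10 and 0.19, 0.05 and 0.56 at passage 2, for replicates 1, 2 and 3. In Tet2fl/fl cells it was -0.20, -0.50 and -0.19 at passage 10 and 0.09, 0.19 and 0.41 at passage 2. Replicate 3 thus carried the highest mean in every group, and Tet2-/- passage 10 replicate 3 lay within the passage 2 range. Replicate 3 was the highest array for 34 of 34 members in Tet2-/- cells at passage 10 and at passage 2, for 21 in Tet2fl/fl cells at passage 10 and for 30 at passage 2. The share of all genes highest on replicate 3 lay between 29.0% and 41.4% in the 4 groups. The labels do not say what a replicate number stands for.

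The genotypes were compared next. At passage 10 the members' median difference, Tet2-/- minus Tet2fl/fl, was 0.11, with single members between -0.13 and 0.27, and at passage 2 it was 0.03, between -0.13 and 0.28. With limma, 0 of 34 members passed at passage 10, where 0.101% of all genes passed as lower and 0.125% as higher, and 0 passed at passage 2, where these shares were 0.00593% and 0.0%. The block added no member, with 0.7% of all genes lower and 0.611% higher at passage 10 and 0.261% lower and 0.148% higher at passage 2. An unadjusted p under 0.05 was reached by 0 members at passage 10, against 6.01% of all genes as lower and 4.59% as higher, and by 0 at passage 2, against 5.65% and 4.29%. The members nearest to the threshold were Cenpa at passage 10 (0.27 ± 0.15, SE, adjusted p = 0.568) and Bub1 at passage 2 (0.28 ± 0.16, SE, adjusted p = 0.621). Cenpa was the 1 member whose Tet2-/- arrays all lay above the Tet2fl/fl arrays at passage 10, against 6.55% of all genes. The 95% confidence intervals of the members spanned -0.65 to 0.66 at passage 10 and -0.59 to 0.79 at passage 2, so that single differences of the size seen between passages lay inside some of them.

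Averaged over both passages, the genotype difference of the members had a median of 0.06, between -0.13 and 0.27, and 0 passed, against 1.06% of all genes as lower and 0.658% as higher. Top2a (0.24 ± 0.10, SE, adjusted p = 0.278) and Bub1 (0.27 ± 0.12, SE, adjusted p = 0.284) were the 2 members with an unadjusted p under 0.05, both higher in Tet2-/- cells, against 6.8% of all genes as higher and 9.33% as lower. With the block 0 members passed, against 3.25% of all genes as lower and 2.16% as higher. The 95% intervals for the average reached at most from -0.45 (Cdc25c) to 0.52 (Bub1). Replicate by replicate, the median over members of Tet2-/- minus Tet2fl/fl was -0.08, 0.09 and 0.24 at passage 10 and 0.09, -0.16 and 0.14 at passage 2. Its sign differed among the pairs at each passage.

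The interaction asks whether the passage difference itself differed between Tet2-/- and Tet2fl/fl cells. Its median over members was 0.06, between -0.22 and 0.37, and 0 of 34 members passed, as did 0.0% of all genes in either direction. With the block 0 members passed, against 0.00593% of all genes as lower. An unadjusted p under 0.05 was reached by 0 members, against 1.55% of all genes as lower and 1.67% as higher. The largest was that of Kif23, whose difference was -0.42 in Tet2-/- and -0.79 in Tet2fl/fl cells, an interaction of 0.37 ± 0.22 (SE, adjusted p = 0.999) with a 95% interval of -0.11 to 0.85. Intervals of the members reached from -1.08 to 0.85. For some members, such as Ttk (-1.08 to 0.63), they included an interaction as large as the average passage difference, and for others, such as Tpx2 (-0.40 to 0.28), they did not.

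Other genes of mitosis that are not among the 35 were also lower at passage 10. Of 28 further kinetochore and centromere genes, 27 had a negative average difference, 12 fell and none rose, with a median of -0.42. For the average difference, 40.2% of all genes tested were negative, 4.52% fell and 3.25% rose. Knl1, the scaffold that recruits Bub1, fell by 0.70 on the log2 scale (adjusted p = 0.0161), and Cenpk and Cenpi, subunits of the inner kinetochore, by 0.73 and 0.60. Kntc1, part of a checkpoint complex at kinetochores, and Cenpc1, which binds Cenpa chromatin, had differences of -0.65 and -0.33. Of 21 condensin, cohesin and separase genes, 11 fell, with a median of -0.27, with the smallest p for Sgo2a, a protector of centromeric cohesin (-0.56, adjusted p = 0.00891), and including its relative Sgo1 (-0.71), the condensin subunits Smc2 (-0.58) and Ncapg2 (-0.59) and the cohesin acetyltransferase Esco2 (-0.51). Of 28 spindle and centrosome genes, 13 fell, with a median of -0.43, among them Stil, a centriole assembly protein (-0.64, adjusted p = 0.0106), the kinesins Kif15 (-0.66) and Kif14 (-0.69), and the microtubule-associated Tacc3 (-0.60) and Hmmr (-0.62). Of 14 further passenger complex and cytokinesis genes, 7 fell, with a median of -0.43, among them the mitotic kinase Pbk (-0.73), the passenger subunit borealin Cdca8 (-0.51), the midbody kinase Cit (-0.53), the kinesin Kif20b (-0.49) and Arhgap11a (-0.33). With the block the counts in these 4 lists were 20, 14, 20 and 9, where 7.28% of all genes fell.

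Of 17 genes of the anaphase promoting complex, 3 fell, or 4 with the block, with a median of -0.14. Over all genes the share that fell was 4.52%, or 7.28% with the block. Among the 17, Fbxo5, the inhibitor Emi1, fell most (-0.60, adjusted p = 0.0132), while Anapc13 and Anapc1, which are subunits, had differences of -0.28 and -0.23. Of 14 further regulators of mitotic entry and exit, 4 fell, or 6 with the block, with a median of -0.22, among them Mastl, the kinase that holds back a phosphatase during mitosis (-0.48), Cdc25a (-0.42), Ccnh, the cyclin of the kinase that activates Cdk1 (-0.35), and Ppp2r2a, a subunit of protein phosphatase 2A (-0.28).

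Of 22 genes for the DREAM, B-Myb and FoxM1 regulators, 5 fell and none rose, against 4.52% and 3.25% of all genes. Their median was -0.12. With the block 9 fell and 1 rose (E2f2, an activator of the E2F family), where 7.28% of all genes fell and 5.9% rose. Mybl2, which encodes B-Myb, had log2 values of 8.57, 8.38 and 8.90 at passage 10 and 9.20, 8.78 and 9.85 at passage 2 in Tet2-/- cells. The values in Tet2fl/fl cells were 8.87, 8.66 and 8.77 at passage 10, against 9.14, 9.29 and 9.65 at passage 2. It fell by 0.63 on the log2 scale (adjusted p = 0.0434), as did Rbl1, the pocket protein p107 (-0.43, adjusted p = 0.0146), Lin9, a subunit shared by the complexes (-0.52), and E2f7 and E2f8, repressors of the E2F family (-0.50 and -0.37). Foxm1 had 7.25, 7.10 and 7.58 at passage 10 and 7.56, 7.33 and 7.96 at passage 2 in Tet2-/- cells. The Tet2fl/fl values of Foxm1 were 7.32, 7.09 and 7.41 at passage 10 and 7.69, 7.79 and 8.16 at passage 2. Foxm1 passed only with the block (-0.46 ± 0.13, SE, adjusted p = 0.0529, 0.00428 with the block). E2f4 and Rbl2, the DREAM subunits of resting cells, had differences of -0.08 and 0.12 and did not pass.

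DNA replication genes, which act in S phase before mitosis, were lower as well. Of 38 measured, 37 had a negative average difference, and 18 fell and none rose without the block, against 4.52% and 3.25% of all genes. With the block 26 fell and 1 rose (Rfc2, a clamp loader subunit), where 7.28% of all genes fell and 5.9% rose. The median was -0.39, against -0.49 for the 34 mitosis and cytokinesis genes. Dut, which removes dUTP (-0.59, adjusted p = 0.00891), Orc6, a subunit of the origin recognition complex (-0.55), Uhrf1, which reads hemimethylated DNA (-0.57), Rrm2, a subunit of ribonucleotide reductase (-0.61), and Tyms, thymidylate synthase (-0.48), had the smallest p-values of that list. Whether the lists' medians differ was not tested. Of 9 genes for G1 cyclins, their kinases and regulators, 2 fell, Myc (-0.41, adjusted p = 0.0376) and Cdc25a, against 4.52% of all genes.

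The CDK inhibitors, which hold back the cell cycle, had a median of 0.25 over 7 genes, and 1 rose, against 3.25% of all genes. That was Cdkn2d, p19 of the INK4 family, with 8.50, 8.43 and 8.43 at passage 10 and 8.01, 8.03 and 8.02 at passage 2 in Tet2-/- cells. Tet2fl/fl cells had 8.24, 8.11 and 8.34 at passage 10 and 8.03, 8.06 and 8.16 at passage 2. The difference was 0.29 ± 0.05 (SE, adjusted p = 0.0173), larger in Tet2-/- cells by value. The passages lay apart there, as they did for 15.4% of all genes as higher, and overlapped in Tet2fl/fl cells. No interaction of genotype and passage passed among the 7 genes, all with an adjusted p of 0.999. Cdkn2c, p18 of the same family, ran the other way and passed only with the block (-0.23 ± 0.07, SE, adjusted p = 0.066, 0.0339 with the block). Cdkn1b, p27, and Cdkn1a, p21, had differences of 0.30 and 0.03 and did not pass.

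Of 10 marker genes of maturing neutrophils, 8 had a negative average difference, with a median of -0.62. Of these markers 1 fell, the granule gene Ngp (-1.81 ± 0.41, SE, adjusted p = 0.0275), or 4 with the block. The shares of all genes that fell were 4.52% and 7.28%. On the Tet2-/- arrays the markers' mean log2 level lay between 7.42 and 8.12 at passage 10 and between 8.35 and 9.10 at passage 2. The Tet2fl/fl arrays had means between 7.07 and 8.71 at passage 10 and between 8.24 and 9.49 at passage 2. Over the 12 arrays the mean log2 levels of the 10 genes ran from 5.18 for Camp, a granule gene of mature neutrophils, to 11.7 for Cxcr2, a chemokine receptor. The list's mean deviation was lower at passage 10 in 5 of 6 same-numbered pairs, with -0.23, -0.92 and -0.36 at passage 10 and 0.22, 0.01 and 0.76 at passage 2 in Tet2-/- cells. In Tet2fl/fl cells it was 0.36, -1.28 and 0.15 at passage 10 and 0.24, -0.10 and 1.15 at passage 2, so that the first pair ran the other way. The part of these genes' cells in the passage differences of the mitosis and cytokinesis genes was not tested.

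**Figure D4:**
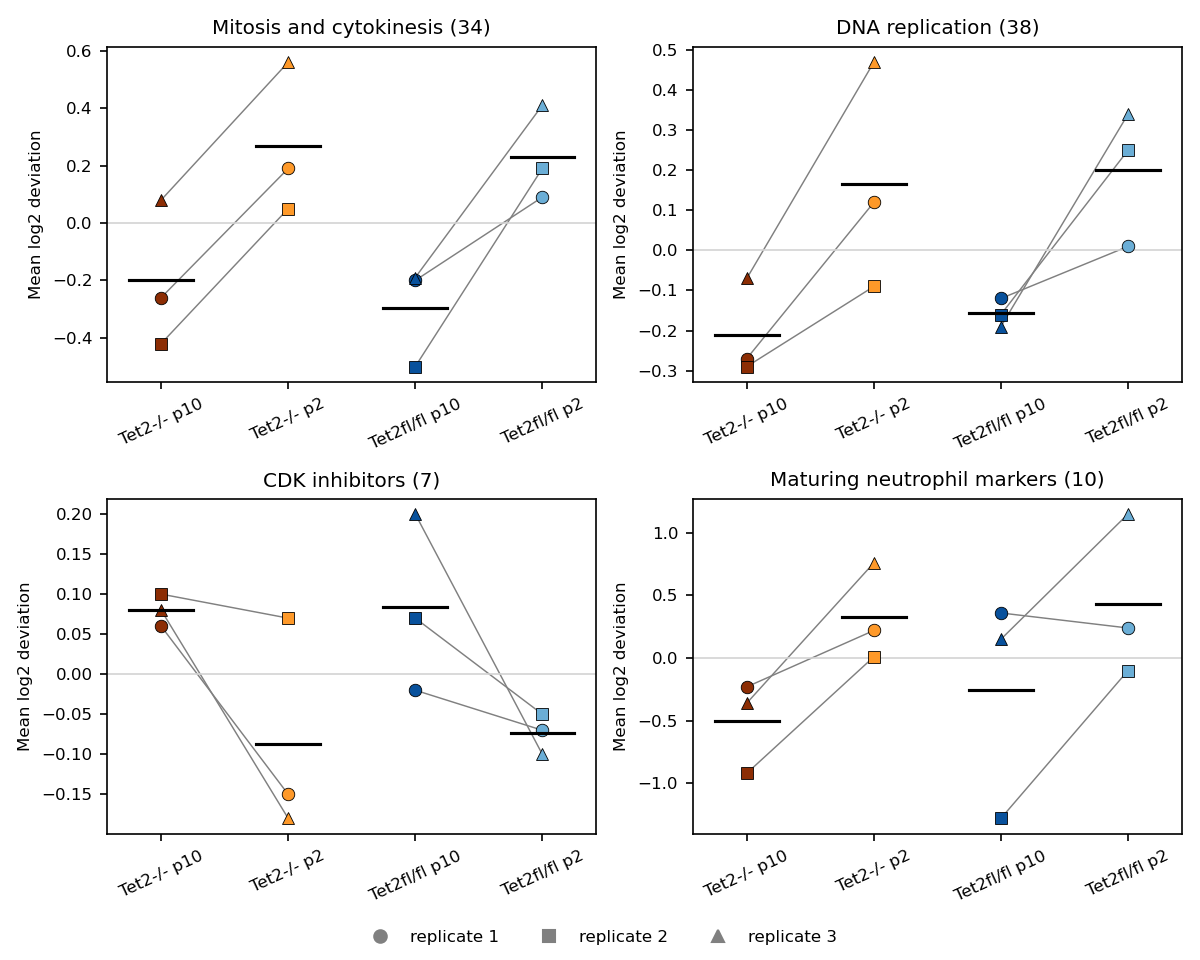
Mean log2 deviation from each gene's mean over 12 arrays (vertical axis) in each of the 4 groups (horizontal axis) for 4 gene lists, with a symbol per array, a bar for the group mean and lines joining arrays of the same replicate number and genotype. The mitosis and cytokinesis genes were lower at passage 10 in 6 of 6 pairs, and the neutrophil markers were lower in 5 of 6, all but the first Tet2fl/fl pair.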

How the data were processed

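Each of 12 RNA samples was hybridised to a Mouse Gene ST 2.0 array. The deposited log2 values were made by the authors with RMA in Affymetrix Power Tools, per the submitters' processing notes, and were used as deposited. The sources used here give neither their versions nor the library file. Rows were kept from the 30th percentile of mean value upward (log2 4.70, 28941 of 41345 rows). Symbols came from the probe annotation: 23521 rows had 1, 1814 several and 16010 none. By gene ID, 23328 rows were matched to RefSeq symbols, and of several rows of a gene the highest was used (16860 genes).

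Groups and replicate numbers came from the labels. limma 3.58.1 (under R 4.3.3) fitted 4 group means to the 12 arrays, which left 8 residual degrees of freedom plus 3.33 prior ones, with two-sided p-values adjusted by Benjamini and Hochberg over all genes within a contrast. Since no label states that replicates came from separate cultures, a p-value measures only the spread between these samples, which may be technical.

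Deviations from group means correlated at 0.201 to 0.517 between arrays of the same replicate number in different groups (18 pairs) and at -0.369 to 0.0532 between different numbers (36 pairs). The numbers were therefore taken to pair the arrays, which the labels do not state. A fit that adds a fixed term for that number (the block) left 6 residual degrees of freedom plus 3.93 prior ones. It is given where it changes a call of a member or a count of calls. With a random term instead, the estimated correlation between arrays of the same number was 0.123 over all genes. The steps were tested on simulated data.

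The members, gene lists and rules were chosen with earlier results of these data known. All members are accounted for. Values on every array are given for members that passed in any contrast and for the member with the smallest p of each class, and for Tet2. Those of Cenpa, Foxm1, Mybl2 and Cdkn2d were added after their values were seen. From other lists, up to 5 genes that passed were named, those with the smallest p, or the nearest where none passed. Alternatives were tried for scaling (arrays set to equal medians, or quantile-normalized), for the filter (none, or the 50th percentile), for the fit (robust empirical Bayes with a trend, array weights, a fixed or random block, only the arrays compared), for genes with several rows (their mean), and for samples (without each array, or without each replicate number).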

Additional observations from a re-analysis of the deposited data

How the results depend on the processing

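All member medians kept their sign in both passage comparisons and in their average under every alternative run: for the average they lay between -0.54 and -0.42, or -0.56 without Tet2-/- passage 10 replicate 3. The count of members past the threshold for the average, 23, was 33 with the replicate block and 16 to 31 under the alternatives that kept all 12 arrays without that fixed block. It was 6 to 27 when 1 array was left out and 0 without replicate 1, 2 or 3 in all 4 groups, which leaves 2 arrays a group. In Tet2-/- cells the count of 4 became 21 with the fixed replicate block but 6 with a random one. It became 0 with equal array medians, with no filter and with only the arrays compared. There it was 0 to 4 when 1 array was left out and 0 without replicate 1, 2 or 3 in all 4 groups. In Tet2fl/fl cells the count of 0 became 3 with the fixed replicate block. It stayed at 0 with a random block and when 1 array was left out. The cause of the losses with equal medians was not tested. Genotype and interaction counts of members were 0 throughout, and over all genes the average passage difference had 1310 calls, or 2223 with the block. Fits to only the arrays compared give no value for averages or the interaction.

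Medians of the members between genotypes changed sign when 1 array was left out: they ran between -0.01 and 0.20 at passage 10 (0.11 with all arrays), -0.13 and 0.15 at passage 2 (0.03), -0.02 and 0.13 for the average (0.06), and -0.10 and 0.21 for the interaction (0.06). Under the other alternatives the lowest were -0.02 at passage 2 and -0.03 for the interaction. Of single genes, Cenpa in Tet2-/- cells became 0.06 with array weights, 0.10 without Tet2-/- passage 2 replicate 3 and 0.03 without replicate 3 in all 4 groups. The genotype difference of Tet2 at passage 2 became 0.01 with array weights, 0.03 without Tet2fl/fl passage 2 replicate 3, 0.00 without Tet2-/- passage 2 replicate 2 and 0.01 without replicate 3 in all 4 groups. At passage 10 it became 0.04 without Tet2-/- passage 10 replicate 2 and 0.01 without replicate 2 in all 4 groups. When 1 array was left out, these values ranged from -0.15 to 0.10 for Cenpa and, for Tet2, between -0.10 and 0.04 at passage 10 and between -0.07 and 0.03 at passage 2. The passage difference of Cdkn1a ranged from -0.01 to 0.08 and became -0.01 without Tet2-/- passage 2 replicate 3 or Tet2fl/fl passage 10 replicate 2. Of the other values of single genes under an alternative, 3601 kept their side of the threshold, 502 no longer passed and 87 came to pass. With 3 arrays a group, 95% intervals for single members in the interaction reached from -1.08 to 0.85.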

Other observations

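Genes of other blood cell types showed few passage differences beside those of the mitosis and cytokinesis genes. Of 14 genes for immature myeloid cells and the sort gate, 0 passed for the average passage difference without the block, and their median was 0.09. Elane, the neutrophil elastase of promyelocytes, had a difference of -1.53 ± 0.49 (SE, adjusted p = 0.0794, 0.0113 with the block) and Ptprc, the pan-leukocyte CD45, one of 0.29 ± 0.08 (SE, adjusted p = 0.064, 0.0181 with the block). Of 8 monocyte and macrophage genes, 0 passed and the median was 0.07, with Ccr2, a chemokine receptor, at 0.52 ± 0.19 (SE, adjusted p = 0.105, 0.0235 with the block). Of 6 erythroid and megakaryocyte genes, 0 passed, none was negative and the median was 0.24. Itga2b, a platelet integrin, was nearest with 0.31 ± 0.13 (SE, adjusted p = 0.156, 0.0371 with the block). Of 4 lymphoid genes, 0 passed and the median was -0.02. Cd3e and Cd79a, which define T and B cells, lay at mean log2 values of 4.79 and 5.19. The others on the list, Dntt and Il7r, lay at 5.64 and 8.41, so that not all lymphoid genes were low.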
